A study of Homo sapiens with 8 samples.

Results

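The 49 genes described here build, load and fire the machinery that copies DNA, and they were chosen by name, as a list of origin licensing, replication fork and S phase entry genes that also holds UNG, the uracil glycosylase of base excision repair. Earlier results of these data were known when the list was chosen, so its shares of called genes are descriptions. All 49 of the 49 were measured, among 19775 genes on the array. Each gene was followed through the probe set with the highest mean of those listed with exactly 1 gene symbol, and the other probe sets of the 26 genes that had several were read afterwards. Together the 49 genes are covered by 89 probe sets.

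Kasumi-1, an established acute myeloid leukemia line that carries the AML1-ETO fusion (RUNX1-RUNX1T1), was electroporated with in vitro transcribed RNA, and total RNA was taken 6 h later for hybridization to Affymetrix U133 Plus 2.0 arrays. The RNA encoded GFP (3 arrays, the control), NR4A1 WT (3 arrays) or NR4A1 CEAA (2 arrays), a form of this orphan nuclear receptor with a mutated DNA-binding domain. The study describes the mutated zinc finger residues of NR4A1 CEAA as essential for binding to DNA. No group lacks electroporation, so every difference from control below is set against cells that received GFP RNA. Both forms of NR4A1 were compared with the same 3 GFP arrays, and the comparison of NR4A1 WT with NR4A1 CEAA is the test of the difference between them. The design holds 1 cell line and 1 time point. The labels do not say whether the arrays of a group came from separate cultures, so p-values measure the spread between these arrays, which may be technical.

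Licensing is the step of G1 in which the origin recognition complex, CDC6 and CDT1 load the MCM2-7 helicase onto DNA in an inactive form, while geminin (GMNN) blocks CDT1 once S phase has begun. At the start of S phase the CDC7-DBF4 kinase and cyclin E-CDK2 allow CDC45 and the GINS complex to join the helicase, and primase with DNA polymerase alpha, the RFC clamp loader, the PCNA clamp, RPA and polymerases delta and epsilon then copy the strands, which FEN1 and LIG1 join. Many of these genes are textbook targets of E2F transcription factors, and their RNA levels rise and fall with the cell cycle, so that in bulk RNA fewer cells in S phase and less RNA per cell cannot be told apart.

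The promoters of the genes with the widest gap between the 2 forms of NR4A1 are shown first, since the forms differ in the domain that binds DNA. RefSeq promoters (build GRCh38.p14) were found for 42 of the 49 genes, and CCNE2, POLD3, RPA2, GINS4, RPA3, MCM4 and MCM5 had no entry. Each stretch runs from 250 bases before the annotated start to 30 bases after it, 5′ to 3′ in the direction of the gene. Capitals mark the letters of 4 motifs searched on both strands: E2F sites (TTTCCCGC, TTTCGCGC, TTTGCCGC or TTTGGCGC), the NBRE to which NR4A1 binds as a monomer (AAAGGTCA), the E-box CACGTG and the CCAAT box (CCAAT). The first 3 genes had the largest positive difference of NR4A1 WT over NR4A1 CEAA among called genes with 1 listed start, and the other 3 the largest negative difference. UNG is given at both of its listed starts.
CDC6 (chr17:40287629-40287908, + strand): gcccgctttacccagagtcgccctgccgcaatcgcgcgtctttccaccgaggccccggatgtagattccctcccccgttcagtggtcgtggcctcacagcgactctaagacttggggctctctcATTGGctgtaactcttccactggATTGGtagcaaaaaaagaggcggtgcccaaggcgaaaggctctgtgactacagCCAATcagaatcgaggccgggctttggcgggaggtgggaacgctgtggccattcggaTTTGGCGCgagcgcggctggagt
RFC4 (chr3:186806453-186806732, - strand): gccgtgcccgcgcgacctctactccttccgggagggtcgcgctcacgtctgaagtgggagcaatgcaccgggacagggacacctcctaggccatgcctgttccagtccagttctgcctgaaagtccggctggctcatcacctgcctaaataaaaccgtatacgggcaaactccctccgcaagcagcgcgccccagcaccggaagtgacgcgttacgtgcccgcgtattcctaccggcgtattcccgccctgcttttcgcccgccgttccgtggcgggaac
ORC1 (chr1:52404394-52404673, - strand): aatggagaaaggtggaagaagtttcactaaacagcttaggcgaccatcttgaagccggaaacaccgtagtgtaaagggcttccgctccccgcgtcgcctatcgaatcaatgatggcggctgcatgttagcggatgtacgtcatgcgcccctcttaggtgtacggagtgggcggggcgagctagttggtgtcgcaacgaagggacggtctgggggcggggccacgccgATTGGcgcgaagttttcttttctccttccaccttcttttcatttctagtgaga
UNG (chr12:109097347-109097626, + strand): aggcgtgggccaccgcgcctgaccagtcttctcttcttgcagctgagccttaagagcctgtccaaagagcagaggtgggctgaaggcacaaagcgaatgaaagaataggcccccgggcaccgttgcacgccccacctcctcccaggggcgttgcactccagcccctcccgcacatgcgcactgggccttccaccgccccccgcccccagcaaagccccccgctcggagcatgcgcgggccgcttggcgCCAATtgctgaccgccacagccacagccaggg
UNG (chr12:109097922-109098201, + strand): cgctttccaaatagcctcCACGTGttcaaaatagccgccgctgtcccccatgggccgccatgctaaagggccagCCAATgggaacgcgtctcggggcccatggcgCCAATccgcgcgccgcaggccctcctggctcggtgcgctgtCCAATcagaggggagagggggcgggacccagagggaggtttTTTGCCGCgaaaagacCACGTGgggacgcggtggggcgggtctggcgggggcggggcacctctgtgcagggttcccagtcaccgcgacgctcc
DBF4 (chr7:87876243-87876522, + strand): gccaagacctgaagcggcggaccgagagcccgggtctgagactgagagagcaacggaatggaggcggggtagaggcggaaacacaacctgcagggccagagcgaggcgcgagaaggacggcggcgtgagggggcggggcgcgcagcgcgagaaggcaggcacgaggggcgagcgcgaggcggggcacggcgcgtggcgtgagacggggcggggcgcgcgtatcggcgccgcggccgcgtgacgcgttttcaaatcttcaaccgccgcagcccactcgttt
ORC2 (chr2:200963631-200963910, - strand): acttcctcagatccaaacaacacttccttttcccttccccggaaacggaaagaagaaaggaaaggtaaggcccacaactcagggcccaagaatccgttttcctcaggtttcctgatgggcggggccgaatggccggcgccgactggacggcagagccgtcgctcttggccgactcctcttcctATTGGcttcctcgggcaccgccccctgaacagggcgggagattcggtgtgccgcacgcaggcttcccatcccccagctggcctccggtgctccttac

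CDC6 holds 3 CCAAT boxes before its start and an E2F match (TTTGGCGC) that begins at base 8 of the transcript. The downstream start of UNG holds an E2F match (TTTGCCGC, from base -63), 2 E-boxes (from bases -232 and -47) and 3 CCAAT boxes, and its upstream start only a CCAAT box. RFC4 and DBF4, which moved in opposite directions, hold none of the letters searched. No marked matches overlap in these 7 stretches.

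Over the 42 genes with an entry, 22 (52.4%) held an E2F match at some listed start, against 3.8% of all 27305 genes in the table. CCAAT boxes were found in 24 (57.1%, against 38.7%), E-boxes in 8 (19.0%, against 8.4%) and the NBRE in 0 (against 1.4%). E2F letters were present in 9 of the 15 genes that were higher with NR4A1 WT than with NR4A1 CEAA, in 4 of the 6 that were lower and in 9 of the 21 that were not called. MCM6, whose promoter holds 4 E2F matches, differed between the 2 forms by 0.02 on the log2 scale (95% interval -0.11 to 0.15) in the probe set followed and by -0.46 in a dimmer one. The 8 genes with an E-box include 0 of the 15 higher genes, 2 of the 6 lower ones and 6 of the 21 others. These matches are descriptions of letters within 280 bases, with no test, and say nothing of what binds there. With the NBRE at 1.4% of all genes, a count of 0 among 42 genes is not informative. The study found most NR4A1 binding sites at regulated genes to be distal to the start, where these stretches do not reach.

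The values are log2 intensities, on which 1 unit is a doubling, and a gene was called where its p from limma stayed under 0.05 after Benjamini-Hochberg adjustment over the 19775 genes. All 49 genes lay well above the array medians of 4.75 to 4.80, between 7.25 (MCM8 in a GFP array) and 12.59 (PCNA in an NR4A1 WT array). The arrays of a group were close, with a median SD over the 49 genes of 0.031 (GFP), 0.059 (NR4A1 WT) and 0.053 (NR4A1 CEAA). The SD of the differences between 2 arrays, over all genes, was 0.147 to 0.208 within a group (7 pairs) and 0.248 to 0.409 between groups (21 pairs). Of 7 blast markers measured, KIT, MPO and RUNX1T1 were at 11.07 to 14.43 in all 8 arrays, PTPRC at 9.83 to 10.6, and CD34, SPI1 and CD38 at 4.92 to 7.88. Group means under GFP, NR4A1 WT and NR4A1 CEAA were 6.85, 5.87 and 6.3 for SPI1, 9.95, 10.46 and 10.43 for PTPRC, 5.13, 5.5 and 5.57 for CD38 and 11.46, 11.1 and 11.6 for RUNX1T1. The part of these differences in the results was not tested. B cell, T cell and erythroid markers lay between 3.75 and 5.69. The epithelial marker EPCAM was at 11.43 to 11.86, and KRT8 and KRT18 at 5.11 to 5.63. Of the fibroblast markers, COL1A1 was at 7.27 to 7.61, DCN at 5.27 to 6.01 and COL3A1 at 3.53 to 3.91. The 3 probe sets of NR4A1 itself lay between 5.06 and 6.66 in every array and did not mark the arrays that received its RNA. The RNA was made from the coding sequence, where these probes lie in the transcript was not looked up, and so this gene checks no label.

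Against GFP, 11 of the 49 genes were higher with NR4A1 WT and 4 were lower, and the remaining 34 were not called. Of all genes, 9.97% were called higher and 10.3% lower, against 22.4% and 8.2% of the 49. All genes include many that are dimmer than the 49. Of the 12811 genes whose mean reached 4.78, the median of all probe sets and arrays, 2255 were higher and 2388 lower. In that fit, 14 of the 49 were higher and 5 lower. The higher genes take part at several stages of the process, from licensing to strand synthesis: the helicase genes MCM5 and MCM8, the origin recognition genes ORC1 and ORC6, the loader CDC6, the activator CDC45, the clamp loader gene RFC4, RPA3, POLA2 and PRIM1 of the priming complex, and cyclin E2 (CCNE2). Lower were UNG, POLE (the catalytic subunit of the leading strand polymerase), POLD2 and MCM2. The changes were small, between 1.14-fold and 1.44-fold, and the median over the 49 genes was 0.03, beside 0.00 over all genes. At an unadjusted p under 0.05, 14 were higher and 8 lower. By Rank Product, the test named in the methods of the study, 0 of the 49 passed in either direction at a q of 0.05, where 2.22% of all genes passed as higher and 2.16% as lower.

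With NR4A1 CEAA, 12 of the 49 genes were lower than with GFP and 2 were higher, with 35 not called. Of all genes, 12.1% were lower and 7.14% higher, against 24.5% and 4.1% of the 49. Of the 12811 brighter genes, 2890 were lower and 1847 higher, beside 15 and 4 of the 49 in that fit. The lower genes were the helicase genes MCM3 and MCM5, the loader CDC6, the activators CDC45 and GINS2, the clamp loader genes RFC2 and RFC4, RPA3, the polymerase delta genes POLD1 and POLD2, PRIM1 and DNA ligase 1 (LIG1). MCM8 and UNG were the 2 that rose. Fold changes of the called genes ran from 1.21 to 1.52, and the median of the 49 was -0.04, beside -0.03 over all genes. Unadjusted, 7 were higher and 16 lower, and Rank Product passed 1 as lower (POLD2) and 0 as higher, where 1.36% and 0.455% of all genes passed.

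**Figure D1:**
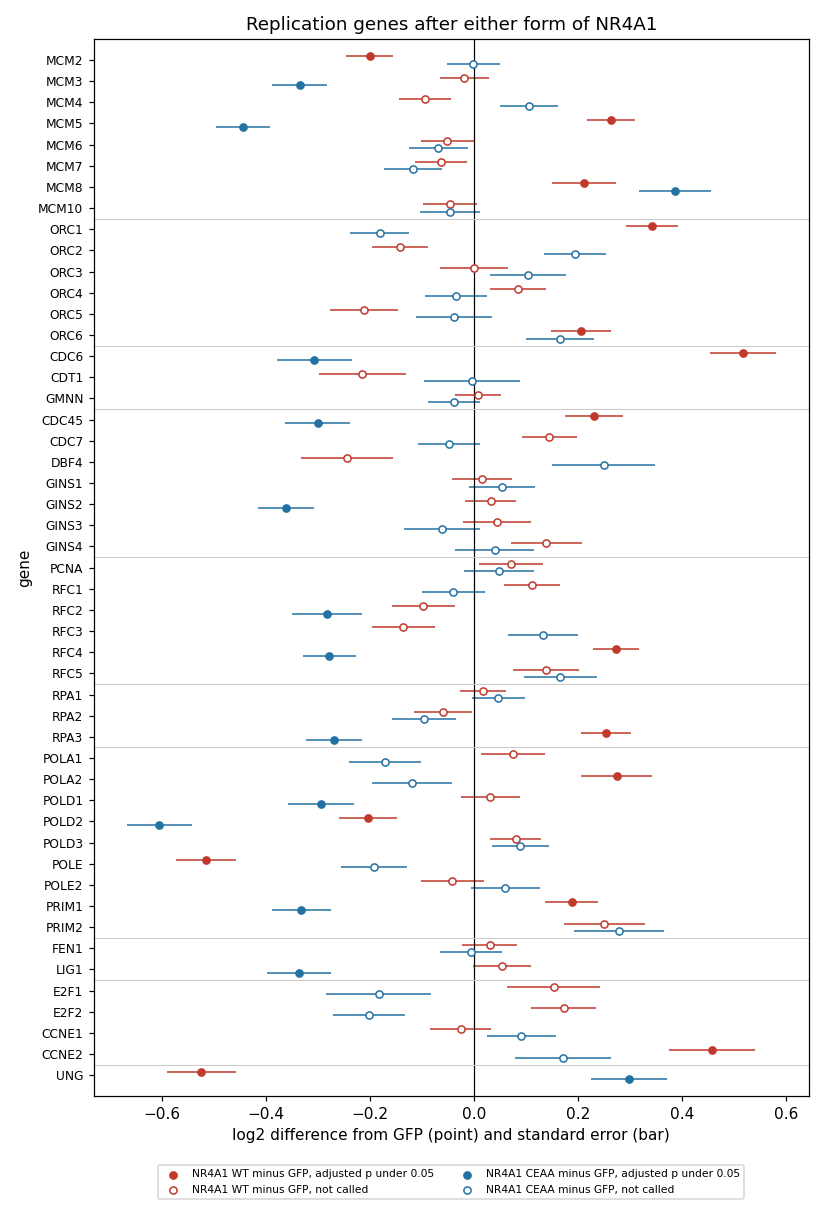
Log2 difference from GFP (x axis) of each of the 49 genes (y axis, grouped by role) for NR4A1 WT (red) and NR4A1 CEAA (blue), with standard errors as bars and filled points for genes with a limma adjusted p under 0.05. MCM5, CDC6, CDC45, RFC4, RPA3 and PRIM1 have a filled red point to the right of 0 and a filled blue point to the left, and UNG has them the other way round. Both forms share the 3 GFP arrays.

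Tested directly, NR4A1 WT and NR4A1 CEAA differed in 25 of the 49 genes, 18 of them higher with NR4A1 WT and 7 lower. Of all genes 18.0% were higher and 13.4% lower, against 36.7% and 14.3% of the 49. Of the 12811 brighter genes, 3695 were higher and 2800 lower, beside 20 and 8 of the 49 in that fit. By role, polymerase and primase genes had 5 of 9 higher with NR4A1 WT and 1 lower, and activation genes 3 and 1 of 7. Helicase genes had 2 higher and 2 lower of 8. The origin recognition genes and the clamp and clamp loader genes each had 1 higher and 1 lower of 6. Uracil removal, with UNG alone, had 1 lower, and each remaining role had at least 1 higher and 0 lower. These counts are small and were not tested by role. The 7 lower genes were UNG, DBF4, ORC2, POLE, RFC3, MCM4 and MCM2. Called differences spanned 1.14-fold to 1.77-fold, with a median over the 49 genes of 0.05, beside 0.03 over all genes. Unadjusted, 20 were higher and 9 lower. Rank Product passed 1 higher (CDC6) and 0 lower, where 1.84% and 0.941% of all genes passed.

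**Figure D2:**
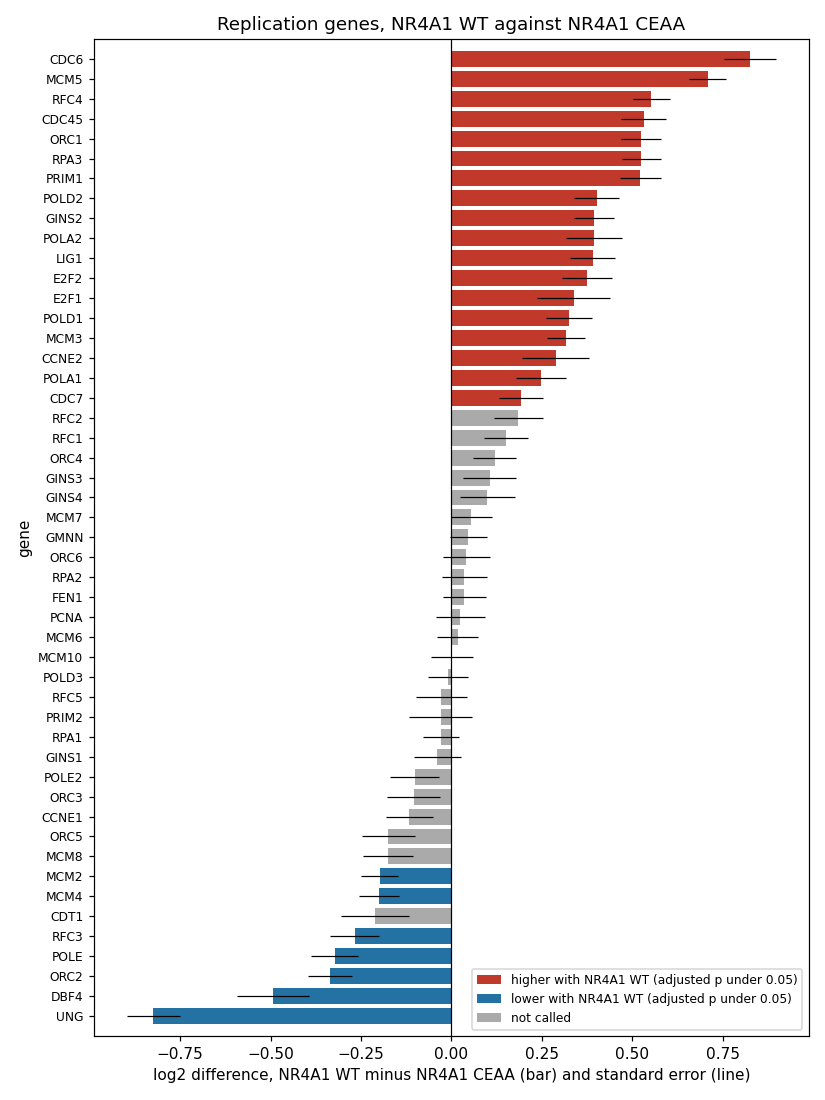
Log2 difference of NR4A1 WT minus NR4A1 CEAA (x axis) for the 49 genes (y axis, in the order of the difference), with standard errors as lines. The 18 red bars are genes higher with NR4A1 WT and the 7 blue bars genes lower with it at a limma adjusted p under 0.05, and CDC6 and UNG stand at the ends.

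Read across the comparisons, 28 genes were called in at least 1 of the 3 and 21 in none. How many of all genes share this or the patterns below was not counted, so no excess over all genes is claimed. MCM5, CDC6, CDC45, RFC4, RPA3 and PRIM1 were above GFP with NR4A1 WT and below GFP with NR4A1 CEAA. UNG was below GFP with NR4A1 WT and above it with NR4A1 CEAA. POLD2 was below GFP with both forms, further with NR4A1 CEAA. MCM8 was above GFP with both forms, and the 2 forms were not shown to differ (adjusted p = 0.0924 by limma). Since both forms are set against the same GFP arrays, the opposite signs are given side by side and not counted as agreement or disagreement between independent comparisons.

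**Figure D3:**
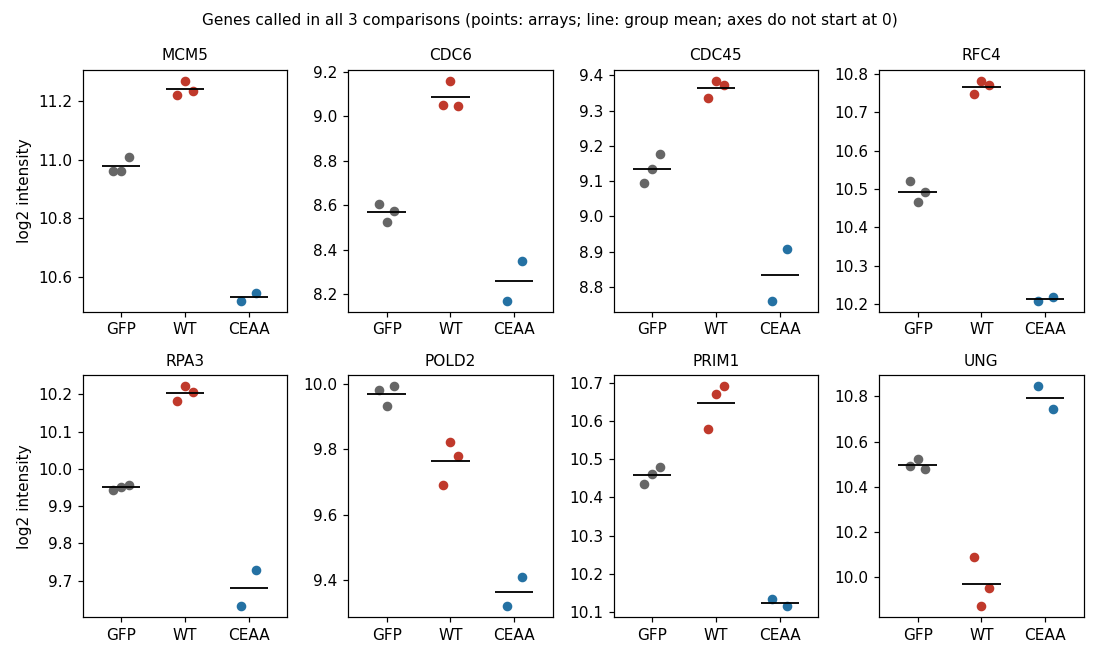
Log2 intensity (y axis, which does not start at 0) in each array of the 8 genes called in all 3 comparisons, with a line at each group mean, for GFP (3 arrays), NR4A1 WT (3 arrays) and NR4A1 CEAA (2 arrays). The 8 genes were chosen by these calls, so that their 3 groups do not overlap follows largely from the choice. UNG runs opposite to MCM5, CDC6, CDC45, RFC4, RPA3 and PRIM1.

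Within the helicase, MCM5 moved furthest. The probe set 216237_s_at read 10.96, 10.96 and 11.01 under GFP, 11.22, 11.27 and 11.23 under NR4A1 WT and 10.52 and 10.55 under NR4A1 CEAA. All 3 NR4A1 WT arrays lay above every GFP array and both NR4A1 CEAA arrays below, so that the forms differed by 0.71 on the log2 scale (SE 0.052, limma adjusted p = 4.58e-05). MCM5 was 1.2-fold above GFP with NR4A1 WT (adjusted p = 0.00468) and 1.36-fold below it with NR4A1 CEAA (adjusted p = 0.00162).

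MCM3, another of the 6 ring subunits, measured 11.09, 11.10 and 11.13 after NR4A1 WT and 10.75 and 10.83 after NR4A1 CEAA, beside 11.12, 11.13 and 11.12 under GFP (201555_at). Only the NR4A1 CEAA arrays stood apart. They were 1.26-fold below GFP (log2 difference -0.34, SE 0.053, adjusted p = 0.00469). With NR4A1 WT the difference from GFP was -0.02 (95% interval -0.13 to 0.09), and the forms differed by 0.32 (adjusted p = 0.00233).

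MCM2 went the other way, at 11.35, 11.37 and 11.38 in the GFP arrays, 11.15, 11.17 and 11.19 after NR4A1 WT and 11.34 and 11.39 after NR4A1 CEAA. Here only the NR4A1 WT arrays stood apart, -0.20 from GFP (adjusted p = 0.0158) and -0.20 from NR4A1 CEAA (adjusted p = 0.0184). The first call was lost without GFP array 2 or 3 (adjusted p up to 0.0584) and the second lost without NR4A1 CEAA array 1 or 2 (adjusted p up to 0.118). MCM4 was called in the direct comparison alone, where NR4A1 WT was -0.20 from NR4A1 CEAA (adjusted p = 0.0260), a call lost without NR4A1 WT array 2 or NR4A1 CEAA array 1 or 2 (adjusted p up to 0.161). MCM6 and MCM7, the last of the ring, and MCM10, which helps to activate it, were called in no comparison through the probe sets followed, though each had another that was. Their differences ran from -0.12 (MCM7, NR4A1 CEAA against GFP) to 0.06 (MCM7, NR4A1 WT against NR4A1 CEAA).

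MCM8, which forms a separate helicase with MCM9 in homologous recombination, was above GFP with both forms through the probe set followed. It read 7.25, 7.32 and 7.39 under GFP, 7.57, 7.57 and 7.45 under NR4A1 WT and 7.66 and 7.75 under NR4A1 CEAA (224320_s_at). Each array that received either form of NR4A1 lay above each GFP array. The rise was 0.21 with NR4A1 WT (adjusted p = 0.0462) and 0.39 with NR4A1 CEAA (adjusted p = 0.00750). The first was lost when any array other than NR4A1 WT array 3 was left out (adjusted p up to 0.152), and the second was lost without NR4A1 CEAA array 2 (adjusted p up to 0.0630).

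Among the 6 origin recognition genes, ORC1 showed the widest gap. ORC1 is the subunit whose level swings with the cell cycle. Its values were 9.13, 9.05 and 9.12 after NR4A1 WT and 8.61 and 8.54 after NR4A1 CEAA, beside 8.76, 8.78 and 8.74 under GFP (205085_at). The groups did not overlap, and NR4A1 WT stood 1.27-fold above GFP (log2 difference 0.34, SE 0.050, adjusted p = 0.00182) and 1.44-fold above NR4A1 CEAA (adjusted p = 0.000250). The NR4A1 CEAA arrays were -0.18 from GFP, which was not called (adjusted p = 0.0563).

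ORC2 had the reverse order, with 9.25, 9.25 and 9.31 under GFP, 9.18, 9.13 and 9.07 under NR4A1 WT and 9.42 and 9.51 under NR4A1 CEAA. Neither form was called against GFP, but the forms differed by -0.34 (SE 0.060, adjusted p = 0.00338). ORC6 was above GFP in all 5 arrays that received NR4A1. It read 9.68, 9.75 and 9.70 in the GFP arrays, 10.01, 9.91 and 9.84 after NR4A1 WT and 9.85 and 9.91 after NR4A1 CEAA (219105_x_at), and only NR4A1 WT was called (log2 difference 0.21, adjusted p = 0.0414). That call was lost when any array other than NR4A1 WT array 3 was left out (adjusted p up to 0.128), and the suffix of this probe set marks probes that may also match other transcripts. ORC3, ORC4 and ORC5 were called nowhere through the probe sets followed, with differences from -0.21 (ORC5, NR4A1 WT against GFP) to 0.12 (ORC4, NR4A1 WT against NR4A1 CEAA). A dimmer probe set of ORC5, 211212_s_at, was called lower with NR4A1 WT than with GFP (-0.36, adjusted p = 0.0151 over all probe sets) and than with NR4A1 CEAA (-0.31, adjusted p = 0.0286).

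CDC6, the ATPase that joins ORC at the origin to load the helicase, had, with UNG in the opposite direction, the widest difference between the forms among the 49 genes. Its probe set 203967_at read 8.60, 8.53 and 8.57 under GFP, 9.05, 9.16 and 9.05 under NR4A1 WT and 8.17 and 8.35 under NR4A1 CEAA. The lowest NR4A1 WT array was above the highest GFP array by more than the whole range of either group, and both NR4A1 CEAA arrays were below all GFP arrays. NR4A1 WT was 1.43-fold above GFP (log2 difference 0.52, SE 0.064, adjusted p = 0.000805) and 1.77-fold above NR4A1 CEAA (log2 difference 0.82, SE 0.072, adjusted p = 0.000103). The fall with NR4A1 CEAA, -0.31 from GFP (adjusted p = 0.0209), was lost without GFP array 1 or 3 or NR4A1 CEAA array 1 (adjusted p up to 0.155).

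CDT1, which loads the helicase together with CDC6, and its inhibitor geminin were not called through the probe sets followed. CDT1 differed from GFP by -0.21 with NR4A1 WT (95% interval -0.41 to -0.02, adjusted p = 0.116) and by -0.004 with NR4A1 CEAA (-0.22 to 0.21). Geminin lay between 10.90 and 10.98 in all 8 arrays, and its intervals against GFP were -0.09 to 0.11 for NR4A1 WT and -0.15 to 0.08 for NR4A1 CEAA.

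Of the genes that turn the loaded helicase on, CDC45 followed the order of CDC6. It measured 9.34, 9.39 and 9.37 after NR4A1 WT and 8.76 and 8.91 after NR4A1 CEAA, beside 9.10, 9.13 and 9.18 under GFP (204126_s_at). No group overlapped another, and the forms differed 1.45-fold (log2 difference 0.53, SE 0.063, adjusted p = 0.000418). Against GFP it was higher by 0.23 with NR4A1 WT (adjusted p = 0.0219), lost without GFP array 1 or 2 or NR4A1 WT array 2 or 3 (adjusted p up to 0.0827). With NR4A1 CEAA it was -0.30 from GFP (adjusted p = 0.0137), lost without NR4A1 CEAA array 1 (adjusted p up to 0.112).

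GINS2 was the one member of the 4-subunit GINS complex that was called. It read 9.85, 9.87 and 9.91 in the GFP arrays, 9.91, 9.95 and 9.87 after NR4A1 WT and 9.49 and 9.54 after NR4A1 CEAA (221521_s_at). GFP and NR4A1 WT overlapped, while NR4A1 CEAA lay below both, -0.36 from GFP (SE 0.054, adjusted p = 0.00389) and 0.39 between the forms (adjusted p = 0.000892). GINS1, GINS3 and GINS4 ranged from -0.06 (GINS3, NR4A1 CEAA against GFP) to 0.14 (GINS4, NR4A1 WT against GFP), all without a call.

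The subunits of the kinase that fires origins moved apart. DBF4, its regulatory subunit, read 10.81, 10.76 and 10.77 under GFP, 10.73, 10.37 and 10.51 under NR4A1 WT and 11.09 and 10.97 under NR4A1 CEAA (204244_s_at). The NR4A1 WT arrays were spread over a wider range than those of the other groups, but none reached a GFP array, and NR4A1 WT was -0.49 from NR4A1 CEAA (SE 0.10, adjusted p = 0.00603), lost without NR4A1 CEAA array 1 (adjusted p up to 0.0572). CDC7, the catalytic subunit, was higher with NR4A1 WT than with NR4A1 CEAA by 0.19 (adjusted p = 0.0408). That call was lost when any array other than NR4A1 WT array 3 was left out (adjusted p up to 0.155).

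**Figure D4:**
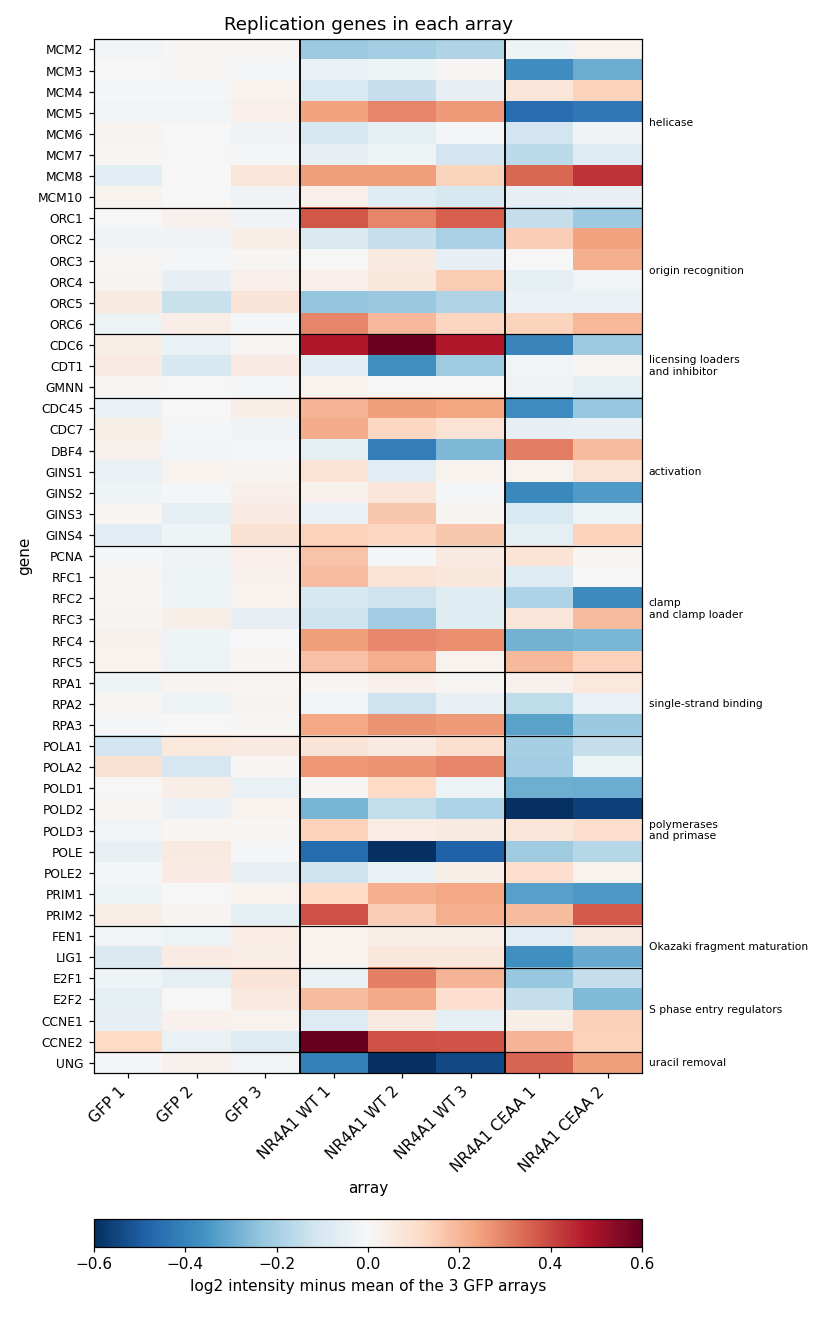
Log2 intensity of each of the 49 genes (rows, grouped by role) in each of the 8 arrays (columns), as the difference from the mean of the 3 GFP arrays, on a colour scale from -0.6 (blue) to 0.6 (red). MCM5, CDC6, CDC45, RFC4, RPA3 and PRIM1 are red in the NR4A1 WT columns and blue in the NR4A1 CEAA columns, and UNG and DBF4 are the reverse.

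In the clamp loader, which opens PCNA and sets it on DNA, RFC4 had the order of MCM5 and CDC6. The values of RFC4 were 10.75, 10.78 and 10.77 after NR4A1 WT and 10.21 and 10.22 after NR4A1 CEAA, beside 10.52, 10.47 and 10.49 under GFP (204023_at). Its 3 groups were clear of each other, with NR4A1 WT 0.27 above GFP (adjusted p = 0.00358), NR4A1 CEAA -0.28 from GFP (adjusted p = 0.00815) and the forms 0.55 apart, or 1.47-fold (SE of the log2 difference 0.051, adjusted p = 0.000130). The fall with NR4A1 CEAA was lost without NR4A1 CEAA array 1 or 2 (adjusted p up to 0.0639). RFC2 was lower with NR4A1 CEAA, at 8.78 and 8.58 beside 8.97, 8.94 and 8.99 with GFP and 8.87, 8.84 and 8.89 with NR4A1 WT. The fall from GFP was -0.28 (adjusted p = 0.0234), lost without GFP array 1, 2 or 3 or NR4A1 CEAA array 2 (adjusted p up to 0.158).

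RFC3 ran the other way and was called only between the forms (-0.27, adjusted p = 0.0160), lost without NR4A1 CEAA array 2 (adjusted p up to 0.126). Its probe sets disagreed, since 204128_s_at differed by 0.15 between the forms and was called lower with NR4A1 CEAA than with GFP (-0.35, adjusted p = 0.0194 over all probe sets), and the mean of all RFC3 probe sets left -0.016 between the forms (adjusted p = 0.887). RFC1 and RFC5 were not called through the probe sets followed. PCNA, the clamp, was called in no comparison. It lay between 12.39 and 12.59 in all arrays, and the 95% interval of its difference from GFP was -0.07 to 0.21 with NR4A1 WT and -0.11 to 0.20 with NR4A1 CEAA.

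RPA coats single-stranded DNA as a trimer, and its smallest subunit, RPA3, was the one called. RPA3 read 9.94, 9.95 and 9.96 in the GFP arrays, 10.18, 10.22 and 10.21 after NR4A1 WT and 9.63 and 9.73 after NR4A1 CEAA (209507_at). Each group was clear of the others, and the forms differed by 0.52 (SE 0.054, adjusted p = 0.000221). Against GFP it was 0.25 with NR4A1 WT (adjusted p = 0.00707) and -0.27 with NR4A1 CEAA (adjusted p = 0.0117), the latter lost without NR4A1 CEAA array 1 (adjusted p up to 0.100). RPA1 and RPA2, the larger subunits, stayed within -0.10 (RPA2, NR4A1 CEAA against GFP) and 0.05 (RPA1, NR4A1 CEAA against GFP), without a call. A dimmer probe set of RPA1, 201529_s_at, was called higher with NR4A1 WT than with NR4A1 CEAA (0.22, adjusted p = 0.0475 over all probe sets).

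Polymerase alpha and primase begin each new strand. PRIM1, the catalytic primase subunit, read 10.43, 10.46 and 10.48 under GFP, 10.58, 10.67 and 10.69 under NR4A1 WT and 10.14 and 10.12 under NR4A1 CEAA (205053_at). It was 1.26-fold below GFP with NR4A1 CEAA (log2 difference -0.33, SE 0.057, adjusted p = 0.00623) and 1.14-fold above it with NR4A1 WT (0.19, adjusted p = 0.0332), the latter lost when any array other than NR4A1 WT array 1 was left out (adjusted p up to 0.110). Between the forms PRIM1 differed by 0.52 (adjusted p = 0.000276).

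POLA2, an accessory subunit of polymerase alpha, read 8.47, 8.47 and 8.50 after NR4A1 WT and 8.0 and 8.18 after NR4A1 CEAA, beside 8.30, 8.10 and 8.22 under GFP (204441_s_at). NR4A1 WT was 0.27 above GFP (adjusted p = 0.0257), lost without GFP array 2 or 3 or NR4A1 WT array 1, 2 or 3 (adjusted p up to 0.0876), while NR4A1 CEAA overlapped GFP. Between the forms the difference was 0.39 (adjusted p = 0.00533), lost without NR4A1 CEAA array 1 (adjusted p up to 0.0539). POLA1, the catalytic subunit, differed only between the forms (0.25, adjusted p = 0.0261), lost without NR4A1 WT array 1 or 3 or NR4A1 CEAA array 1 or 2 (adjusted p up to 0.149). PRIM2 was above GFP in all 5 arrays with NR4A1, by 0.25 with NR4A1 WT and 0.28 with NR4A1 CEAA, and neither passed (adjusted p = 0.0585 and 0.0605).

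Polymerase epsilon extends the leading strand and polymerase delta the lagging strand. POLE read 9.49, 9.59 and 9.52 in the GFP arrays, 9.07, 8.94 and 9.05 after NR4A1 WT and 9.32 and 9.36 after NR4A1 CEAA (216026_s_at). NR4A1 WT was 1.43-fold below GFP (log2 difference -0.52, SE 0.057, adjusted p = 0.000438) and also below NR4A1 CEAA (-0.32, adjusted p = 0.00545). The NR4A1 CEAA arrays were below all GFP arrays too, by a difference that was not called (-0.19, adjusted p = 0.0725). Its partner POLE2 stayed between -0.10 and 0.06 in the 3 comparisons, without a call.

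POLD2, an accessory subunit of polymerase delta, gave the largest fall with NR4A1 CEAA among the 49 genes. The arrays read 9.98, 9.93 and 9.99 under GFP, 9.69, 9.82 and 9.78 under NR4A1 WT and 9.32 and 9.41 under NR4A1 CEAA (201115_at). Both forms lay below GFP, 1.52-fold with NR4A1 CEAA (log2 difference -0.61, SE 0.063, adjusted p = 0.00104) and 1.15-fold with NR4A1 WT (-0.20, adjusted p = 0.0353). The latter call was lost without GFP array 1, 2 or 3 or NR4A1 WT array 1 or 3 (adjusted p up to 0.108). The forms differed by 0.40 (adjusted p = 0.00168). POLD1, the catalytic subunit, read 9.35 and 9.35 with NR4A1 CEAA, beside 9.65, 9.68 and 9.60 with GFP and 9.65, 9.76 and 9.61 with NR4A1 WT. Only NR4A1 CEAA was called against GFP (-0.29, adjusted p = 0.0152), lost without GFP array 2 or NR4A1 CEAA array 1 or 2 (adjusted p up to 0.0892), and the forms differed by 0.33 (adjusted p = 0.00501). POLD3 was called in no comparison.

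LIG1, which seals the nicks between Okazaki fragments, was likewise lower with NR4A1 CEAA. Its values were 9.41, 9.46 and 9.45 after NR4A1 WT and 9.01 and 9.08 after NR4A1 CEAA, beside 9.30, 9.43 and 9.42 under GFP (202726_at). The NR4A1 CEAA arrays were 1.26-fold below GFP (log2 difference -0.34, SE 0.062, adjusted p = 0.00845), lost without NR4A1 CEAA array 1 (adjusted p up to 0.0764), and 0.39 separated the forms (adjusted p = 0.00188). GFP and NR4A1 WT overlapped. FEN1, the flap nuclease of the same step, was not called, with intervals against GFP of -0.09 to 0.15 for NR4A1 WT and -0.14 to 0.13 for NR4A1 CEAA.

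Among the regulators of S phase entry, CCNE2 rose with NR4A1 WT. It read 9.44, 9.28 and 9.24 in the GFP arrays, 9.94, 9.71 and 9.70 after NR4A1 WT and 9.52 and 9.46 after NR4A1 CEAA (205034_at). The rise over GFP was 1.37-fold (log2 difference 0.46, SE 0.083, adjusted p = 0.00551). NR4A1 CEAA also lay above GFP in both arrays, by 0.17 (adjusted p = 0.253). The forms differed by 0.29 (adjusted p = 0.0476), lost when any array other than GFP array 1 or NR4A1 WT array 3 was left out (adjusted p up to 0.208). Cyclin E1 (CCNE1) was not called in any comparison. Through the probe sets followed, the activator E2Fs, E2F1 and E2F2, were not called against GFP. Both were higher with NR4A1 WT than with NR4A1 CEAA, by 0.34 (adjusted p = 0.0349) and 0.38 (adjusted p = 0.00388). The call of E2F1 was lost when any array other than GFP array 3 or NR4A1 WT array 1 was left out (adjusted p up to 0.183).

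UNG removes uracil from DNA at the fork and in antibody genes, and it had the largest fall with NR4A1 WT among the 49 genes. The arrays read 10.49, 10.52 and 10.48 under GFP, 10.09, 9.87 and 9.95 under NR4A1 WT and 10.84 and 10.75 under NR4A1 CEAA (202330_s_at). No groups overlapped. UNG was 1.44-fold below GFP with NR4A1 WT (log2 difference -0.53, SE 0.066, adjusted p = 0.000867), and the forms were -0.82 or 1.77-fold apart (SE 0.074, adjusted p = 0.000118). The rise with NR4A1 CEAA, 0.30 (adjusted p = 0.0263), was lost without GFP array 1, 2 or 3 or NR4A1 CEAA array 1 or 2 (adjusted p up to 0.170). The part of the E2F letters before its downstream start (TTTGCCGC) in these differences was not tested.

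The other probe sets of the 26 genes with several did not always repeat these results. Over all 41091 probe sets with 1 symbol, 13.6% were called in either direction for NR4A1 WT against GFP, 15.8% for NR4A1 CEAA against GFP and 26.4% between the forms. Of the 40 other probe sets of the 49 genes, 5 (2 higher, 3 lower), 9 (1 higher, 8 lower) and 16 (10 higher, 6 lower) were called. The second probe set of MCM5 (201755_at) gave 0.26, -0.56 and 0.83 in these 3 comparisons, each called in the direction of the first. The second of CDC6 (203968_s_at) gave 0.44, -0.19 and 0.63, of which the first and last were called. ORC2, POLA2 and CCNE2 between the forms and RFC2 with NR4A1 CEAA also had a second probe set called in the same direction. Of the called genes with other probe sets, 2 of 5, 2 of 5 and 5 of 10 in the 3 comparisons had such a repeat.

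For 5 genes not called between NR4A1 CEAA and GFP (CDT1, MCM7, RFC5, MCM4 and RFC3), a dimmer probe set was called lower with NR4A1 CEAA. CDT1 through 209832_s_at read 8.07, 8.14 and 8.37 in the GFP arrays, 8.02, 8.06 and 8.10 after NR4A1 WT and 7.31 and 7.47 after NR4A1 CEAA, a difference of -0.81 from GFP (limma adjusted p = 0.00158 over all probe sets). That is a larger change than any in the 49 probe sets followed in that comparison, and the brighter CDT1 probe set, whose suffix marks probes that may match other transcripts, read -0.004. MCM7 through 210983_s_at read 10.88, 10.87 and 10.83 in the GFP arrays, 10.81, 10.90 and 10.80 after NR4A1 WT and 10.21 and 10.26 after NR4A1 CEAA (-0.63, adjusted p = 0.000879), while the probe set followed, with a like signal, read 10.98, 10.97 and 10.96 with GFP and 10.81 and 10.89 with NR4A1 CEAA. RFC5 through 203210_s_at was -0.52 from GFP (adjusted p = 0.0187). MCM4 was -0.40 through 222037_at (adjusted p = 0.00672) and -0.37 through 242479_s_at (adjusted p = 0.0490), and RFC3 had the fall of 204128_s_at given above. The same probe sets of CDT1, MCM7 and RFC5 were also called higher with NR4A1 WT than with NR4A1 CEAA. They differed by 0.67 (limma adjusted p = 0.00117), 0.60 (adjusted p = 0.000270) and 0.62 (adjusted p = 0.00454). The probe sets followed gave -0.21, 0.06 and -0.03 there, without a call.

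Other probe sets also gave other signs or further calls. MCM4 was lower with NR4A1 WT than with NR4A1 CEAA in the probe set followed and higher in 222037_at (0.27, adjusted p = 0.0194). GINS2 and E2F2 were called higher between the forms, and lower in 243136_at (-0.46) and 207042_at (-0.26), which are dim, with array values of 4.39 to 5.42. MCM10 had another probe set, 222962_s_at, that rose with NR4A1 CEAA (0.31, adjusted p = 0.0200). It was also lower with NR4A1 WT than with NR4A1 CEAA (-0.31, adjusted p = 0.0124). MCM6 was lower with NR4A1 WT than with NR4A1 CEAA through 238977_at (-0.46, adjusted p = 0.0111), and RFC1 higher through 208021_s_at (0.27, adjusted p = 0.0123). Against GFP, ORC2 fell with NR4A1 WT through 235423_at (-0.37, adjusted p = 0.0291). E2F2 fell with NR4A1 WT through the dim 207042_at (-0.34, limma adjusted p = 0.0108), while its probe set followed gave 0.17 without a call. In all, 13 of the 26 genes with several probe sets had one called where the probe set followed was not, or called the other way, in some comparison. They were MCM4, MCM6, MCM7, MCM10, ORC2, ORC5, CDT1, GINS2, RFC1, RFC3, RFC5, RPA1 and E2F2. Which transcripts these probe sets detect was not tested.

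**Figure D5:**
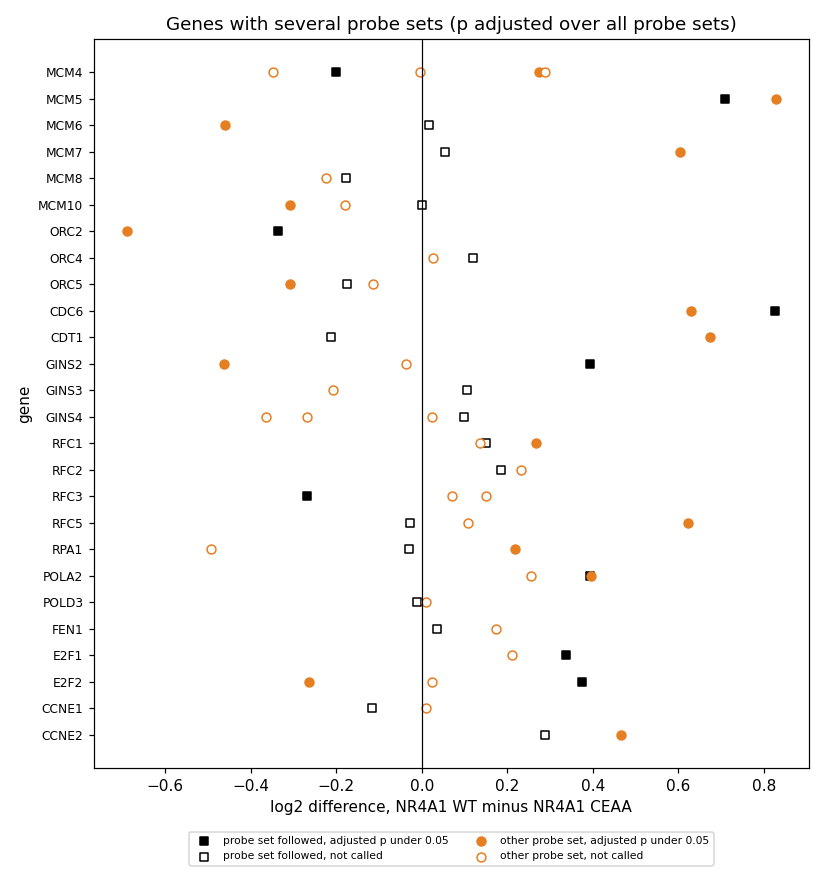
Log2 difference of NR4A1 WT minus NR4A1 CEAA (x axis) for every probe set of the 26 genes with several (y axis), with black squares for the probe set followed and orange circles for the others, filled where limma's adjusted p over all probe sets is under 0.05. The probe sets of MCM5, CDC6 and ORC2 lie on the same side, and those of MCM4, MCM7, CDT1, GINS2 and RFC5 lie far apart. The probe set followed for CCNE2 is unfilled because its call is lost when p is adjusted over all probe sets, while its other probe set is filled.

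Genes that work beside the 49 were counted in 4 lists, and no list was tested as a set. The shares of all genes called higher and lower, given above, were 9.97% and 10.3% for NR4A1 WT against GFP, 7.14% and 12.1% for NR4A1 CEAA against GFP, and 18.0% and 13.4% between the forms. In the fit on the 12811 brighter genes, 2255 and 2388, 1847 and 2890, and 3695 and 2800 were called, which are larger shares. The lists were not counted in that fit, so no excess over genes of like brightness is claimed. Of 27 other replisome and origin firing genes, 6 were higher and 2 lower with NR4A1 WT than with GFP, 3 were higher and 6 lower with NR4A1 CEAA, and 12 were higher and 6 lower with NR4A1 WT than with NR4A1 CEAA. These are 22.2% and 7.4%, 11.1% and 22.2%, and 44.4% and 22.2% of the list. Rank Product passed 1 higher and 0 lower, 1 and 1, and 1 and 0. The checkpoint mediator claspin (CLSPN, 0.66), DONSON (0.40) and the helicase PIF1 (0.37) led with NR4A1 WT. POLD4, the smallest subunit of polymerase delta, was -0.83 from GFP with NR4A1 CEAA and 1.17 between the forms, in the direction of POLD1 and POLD2. ATAD5, which unloads PCNA, went the other way (0.74 and -0.85), and RECQL4 was -0.50 from GFP with NR4A1 CEAA.

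Of 16 checkpoint and chromatin assembly genes, 1 was higher and 2 lower with NR4A1 WT, 3 higher and 4 lower with NR4A1 CEAA, and 6 higher and 4 lower between the forms. In shares of the list these are 6.2% and 12.5%, near the shares of all genes, then 18.8% and 25%, and 37.5% and 25%. By Rank Product 0 passed with NR4A1 WT, 1 as lower with NR4A1 CEAA and 1 as higher between the forms. The histone chaperone ASF1B had the pattern of CDC6 and MCM5, at 0.26 with NR4A1 WT, -0.71 with NR4A1 CEAA and 0.97 between the forms. The checkpoint kinase ATR had that of UNG, at -0.36, 0.50 and -0.85. UHRF1 fell with NR4A1 WT (-0.39), RAD17 rose with NR4A1 CEAA (0.46), and ASF1A was higher with NR4A1 WT than with NR4A1 CEAA (0.55).

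Of 23 E2F, RB and S phase regulators, 3 were higher and 1 lower with NR4A1 WT, 4 higher and 2 lower with NR4A1 CEAA, and 4 higher and 6 lower between the forms. The shares were 13.0% and 4.3%, 17.4% and 8.7%, and 17.4% and 26.1%, beside the shares of all genes above. Rank Product passed 1 higher and 1 lower with NR4A1 WT, 1 higher with NR4A1 CEAA and 0 between the forms. The repressor E2Fs E2F7 (0.74) and E2F8 (0.46) rose with NR4A1 WT while E2F5 fell (-0.74). The pocket protein genes RBL1 (0.67), RBL2 (0.47) and RB1 (0.45) rose with NR4A1 CEAA. Between the forms E2F5 (-0.94) and RBL1 (-0.55) were lower and E2F7 (0.55) higher with NR4A1 WT.

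Of 14 other base excision repair genes, 3 were higher and 2 lower with NR4A1 WT, 1 higher and 4 lower with NR4A1 CEAA, and 5 higher and 2 lower between the forms. With so short a list these are 21.4% and 14.3%, 7.1% and 28.6%, and 35.7% and 14.3%. Rank Product passed 1 as lower with NR4A1 WT, 0 with NR4A1 CEAA and 1 as higher between the forms. SMUG1, another uracil glycosylase, ran opposite to UNG, at 0.28 with NR4A1 WT, -0.58 with NR4A1 CEAA and 0.86 between the forms. NTHL1, a glycosylase for oxidized bases, fell with both forms (-0.59 and -0.48). PARP1 rose with NR4A1 WT (0.26), XRCC1 fell with NR4A1 CEAA (-0.55) and was higher with NR4A1 WT between the forms (0.59), and NEIL2 was lower (-0.85). All of these passed the limma threshold of an adjusted p under 0.05 over all genes.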

How the data were processed

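Probe set intensities of 8 Affymetrix U133 Plus 2.0 arrays were analysed. The deposited values are log2 intensities, for which the authors ran RMA Express (Robust Multiarray Analysis: background correction, quantile normalization between arrays and 1 summary value per probe set). Its version is not given in the sources used here. Quantile normalization gives the arrays like distributions, so a shift of all genes together would not be seen, and levels are not compared as amounts between probe sets. Of 54613 probe sets, 1801 carried several gene symbols and 11721 carried none, and both kinds were set aside. The 41091 others were reduced to 1 per gene by the highest mean over the 8 arrays, which left 19775 genes.

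The 3 groups were fitted together with limma 3.58.1 (R 4.3.3, functions lmFit and eBayes, 8.04 degrees of freedom), with no covariate. A gene was called at a p under 0.05 after Benjamini-Hochberg adjustment over all 19775. The methods' Rank Product was rebuilt in Python 3.11.15 with 100 permutations within arrays, and both tests were tested on simulated data. The number of arrays limits the precision. The list of 49 genes, the 4 lists of neighbouring genes and the motifs were chosen with earlier results of these data known. All called genes of the 49 were named, those among the 12 largest differences of a comparison with every array's value, and up to 3 called genes of each other list per comparison.

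The other settings were an intensity trend, array weights, a fit on the compared groups alone, removal of dim probe sets, median centring, quantile normalization again, all probe sets tested together, the mean of the probe sets of a gene, a replicate block, Rank Product and each array left out in turn.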

Additional observations from a re-analysis of the deposited data

How the results depend on the processing

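The test mattered most. Rank Product left 0 higher and 0 lower of the 11 and 4 genes called for NR4A1 WT against GFP, 0 higher and 1 lower of the 2 and 12 for NR4A1 CEAA against GFP, and 1 higher and 0 lower of the 18 and 7 between the forms. The calls that held in every setting run were POLD2 in NR4A1 CEAA against GFP and CDC6 between the forms. Both passed Rank Product only just, with q of 0.0492 and 0.0474 beside the threshold of 0.05. A further 8, 3 and 13 calls of the 3 comparisons were lost under Rank Product and under no other setting.

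An intensity trend called 8 genes lower with NR4A1 WT and 7 higher with NR4A1 CEAA against GFP, and over all genes it raised these calls too, from 2034 to 2509 and from 1411 to 2081. Array weights, only the 2 groups compared, the filter on dim probe sets and quantile normalization again each called 4 higher with NR4A1 CEAA. All 19775 genes then gave 1659 to 1946, except under the filter, where 1847 of the 12811 genes kept were higher. With 1 array left out, the genes called higher and lower ran from 6 to 9 and 2 to 5 for NR4A1 WT against GFP, 0 to 4 and 6 to 12 for NR4A1 CEAA against GFP, and 14 to 16 and 4 to 8 between the forms. Calls over all genes moved with them, from 1443 to 1774 and 1549 to 1916, from 335 to 1538 and 973 to 2512, and from 2432 to 3494 and 1774 to 2638. The 6 lower genes with NR4A1 CEAA were found without its first array, and the 4 lower genes between the forms without either of its arrays. The fit without the second GFP array gave the 6 higher genes with NR4A1 WT, without the third the 2 lower ones, and without the second NR4A1 CEAA array the 0 higher ones.

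The replicate numbers showed no sign of pairing the arrays, though so few arrays cannot exclude it and the labels do not say. Same-numbered arrays of different groups had correlated deviations of -0.041 to 0.086 (7 pairs), others of -0.086 to 0.085 (14 pairs). The deviations of the 2 NR4A1 CEAA arrays mirror each other, so their pairs repeat the same values with opposite signs. With the replicate number as a block, 7 genes were higher and 3 lower with NR4A1 WT, 1 higher and 10 lower with NR4A1 CEAA, and 15 higher and 5 lower between the forms. All genes then gave 1695 and 1768, 822 and 1643, and 3095 and 2268.

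The mean of all probe sets of a gene turned 3 differences and lost 4 more calls (MCM8 and POLA2 with NR4A1 WT against GFP, RFC3 and E2F2 between the forms). GINS2 became 0.057 in NR4A1 CEAA against GFP (adjusted p = 0.675) and -0.035 between the forms (adjusted p = 0.787), and MCM4 became 0.002 between the forms (adjusted p = 0.985). That setting averages in dimmer probe sets, whose own values are given above. With 2 arrays for NR4A1 CEAA, calls that involve it rest on few values.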
